A study of Homo sapiens with 8 samples.

Results

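SBO02 is the barcode of 1 of 6 cultures of HMLE, an immortalised line grown from human breast epithelium, that were pooled and loaded as libraries 1 and 2 of the series. It was set against SBO03, SBO04 and SBO06, 3 other cultures of the same pool with an epithelial profile. Its members were 450 cells, 260 in library 1 and 190 in library 2, of 6161 cells assigned to 1 culture, 12718 cells kept in the pool and 22147 kept in the series. A cell was a member when it had at least 1000 genes and at most 15% mitochondrial UMIs, when HTODemux called SBO02 as its only barcode, and when SBO02 was also its highest barcode. The other cultures gave 876 cells for SBO03, 294 for SBO04 and 1062 for SBO06 by the same rule.

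The study asked which intermediate states HMLE cells pass through when TGF-β drives them from an epithelial to a mesenchymal state, and what part G-quadruplexes, folds of guanine-rich DNA that the ligand pyridostatin binds, have in it. Cells of every culture carried a short barcoded oligonucleotide (SBO), were collected enzymatically, pooled in equal numbers and read with a 10x Genomics 5′ kit, which counts unique molecular identifiers (UMIs). The labels do not say which barcode received TGF-β, pyridostatin, both or neither, or for how long, so SBO02 and the 3 other cultures are named by barcode alone and all share the line and the collection. Each barcode is 1 culture, and libraries 1 and 2 are separate loads of 1 pool, so the spread between them is technical and no test between cultures was possible. HMLE is 1 immortalised line, and its cultures do not stand for the breast of a person.

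The barcodes that define the 4 cultures are 15 bases long and are shown because membership rests on them. Capitals mark the bases at which SBO03, SBO04 and SBO06 differ from SBO02 when both are read from the 5′ end.
SBO02: agcgaaccgccgctg
SBO03: GTGCaaGAgTTgGCg
SBO04: GAAgaaGcgTTATtC
SBO06: CAcTCCTTgAcAGGT
SBO02 differed from them at 10, 9 and 12 positions.

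SBO02 was the least cleanly marked of the 4 cultures. The median cell of SBO02 held 213 UMIs of its own barcode in library 1 and 201 in library 2, which was 65.6% and 69.3% of its barcode UMIs. That share was 92.8% and 91.3% in SBO03, 73.3% and 76.5% in SBO04, and 86.1% and 85.6% in SBO06. A further 114 cells called SBO02 had another barcode higher and were left out, against 3, 58 and 12 for SBO03, SBO04 and SBO06. Cells of other cultures may be among the 450, so that every SBO02 level may be that of a mixture. Their number was not measured. For the leading genes, values are also given under a rule on the highest barcode alone, which was not a stricter subset of the same cells. That rule took fewer cells for SBO02 (191 and 150) and SBO04 (138 and 118). It took more for SBO03 (1074 and 692) and SBO06 (791 and 586). Gene UMIs summed to 5538543 and 4942063 over the SBO02 cells, with medians of 20966.5 and 27753 per cell, against medians of 21238 to 24644 in library 1 and 27447.5 to 30686 in library 2 for the other 3. Libraries 1 and 2 shared 347 cell barcodes as deposited and 116 after filtering, and 4 of these were SBO02 cells in both. The counts of called genes and the levels of C15orf48 and CDKN1A were also computed without these cells, and the gene lists and single-cell values were not.

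SBO02 cells expressed genes of mammary epithelium together with some mesenchymal genes. EPCAM, an epithelial adhesion molecule, stood at 325 and 314 CPM (the UMIs of a gene scaled to the same total in each culture and library) in libraries 1 and 2, beside 315 to 326 CPM in the other 3. KRT5, a basal keratin, stood at 473 and 556 CPM and VIM, the mesenchymal filament vimentin, at 216 and 233 CPM. SBO01 and SBO05 are the remaining cultures of the pool. The luminal list summed to 19149 and 20139 CPM, against 8238 and 8540 CPM in SBO01 and 3695 and 3050 CPM in SBO05. The basal list summed to 6494 and 7275 CPM, against 17150 and 17777 CPM and 1628 and 1277 CPM. The mesenchymal list summed to 4045 and 4065 CPM, against 1350 and 1385 CPM and 5487 and 5896 CPM. Most of this sum in SBO02 came from 1 gene, FN1, which encodes fibronectin. These sums did not set SBO02 apart from SBO03, SBO04 and SBO06. There the luminal list summed to 17567.5 to 20188 CPM, the basal list to 6123 to 7324 CPM and the mesenchymal list to 2503 to 4864 CPM. Of 8 leukocyte markers, CD3D and CD3E were at 0 in SBO02, PTPRC had 1 UMI, and the list summed to 31.8 and 33.8 CPM against 20.3 to 28.7 CPM in the other 3, nearly all of it CD68, a lysosomal protein. Endothelial markers summed to 5.96 and 4.25 CPM over 7 genes with CLDN5 at 0, and fibroblast markers to 54.4 and 58.9 CPM over 8 genes with DPT at 0.

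C15orf48 encodes a small mitochondrial protein, also known as NMES1 or MOCCI, that can take the place of its paralogue NDUFA4 in cytochrome c oxidase, the last complex of the respiratory chain, and is known as a gene of inflamed and mucosal epithelia. CDKN1A encodes p21, the inhibitor of cyclin-dependent kinases through which p53 arrests the cell cycle. RARRES1, a retinoic acid responder, and CD24, a surface glycoprotein of luminal cells, are the other markers by which SBO02 had been singled out.

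C15orf48 and CDKN1A were the genes past the 1.5-fold margin in SBO02. The files hold 36601 genes, and 6301 whose mean over the 4 cultures reached 20 CPM were compared. C15orf48 and CDKN1A were 2 genes higher in SBO02 than in the next culture by at least 1.5-fold in both libraries (0.0317%), and none was lower than the lowest of the others by that margin (0.00%). With no margin, SBO02 was the highest of the 4 in both libraries for 875 genes (13.9%) and the lowest for 677 (10.7%). The counts were of the same order for the other cultures, with 1 gene highest and 1 lowest by 1.5-fold in SBO03, 2 and 0 in SBO04, and 1 and 5 in SBO06. The 4 cultures were close as wholes, since log2(CPM + 1) over the 6301 genes correlated at 0.994 between the loads of SBO02 and at 0.989 to 0.993 between SBO02 and the others within a library, a description across genes.

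C15orf48 stood at 849 and 753 CPM in libraries 1 and 2 in SBO02, at 559 and 402 CPM in SBO03, at 470.5 and 435 CPM in SBO04 and at 469.7 and 366 CPM in SBO06. Both loads of SBO02 lay above all 6 loads of the other cultures, while SBO03, SBO04 and SBO06 overlapped one another. The counts behind SBO02 were 4704 and 3720 UMIs, which gave exact 95% Poisson intervals of 825 to 874 and 729 to 777 CPM, covering counting error only. The ratio to the next culture was 1.52 (95% interval 1.46 to 1.58) over SBO03 in library 1 and 1.73 (1.63 to 1.83) over SBO04 in library 2. On the log2(CPM + 1) scale the difference from the next culture was 0.70 on average. The gene was an order of magnitude lower in the remaining cultures of the pool, with 54.3 and 47.8 CPM in SBO01 and 57.4 and 33.7 CPM in SBO05.

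CDKN1A stood at 372 and 439.9 CPM in SBO02, at 239 and 227 CPM in SBO03, at 166 and 254 CPM in SBO04 and at 196 and 219 CPM in SBO06. SBO02 was again above every load of the others. Here SBO01, with 241 and 236 CPM, lay just above SBO03, SBO04 and SBO06 in library 1 and within their range in library 2. SBO05, with 153 and 213 CPM, lay below SBO03, SBO04 and SBO06 in each library. The ratio to the next culture was 1.55 (1.47 to 1.65) over SBO03 in library 1 and 1.73 (1.60 to 1.87) over SBO04 in library 2, a mean log2 difference of 0.71. The plot of 12 genes by culture shows both genes beside the others named here.

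**Figure D1:**
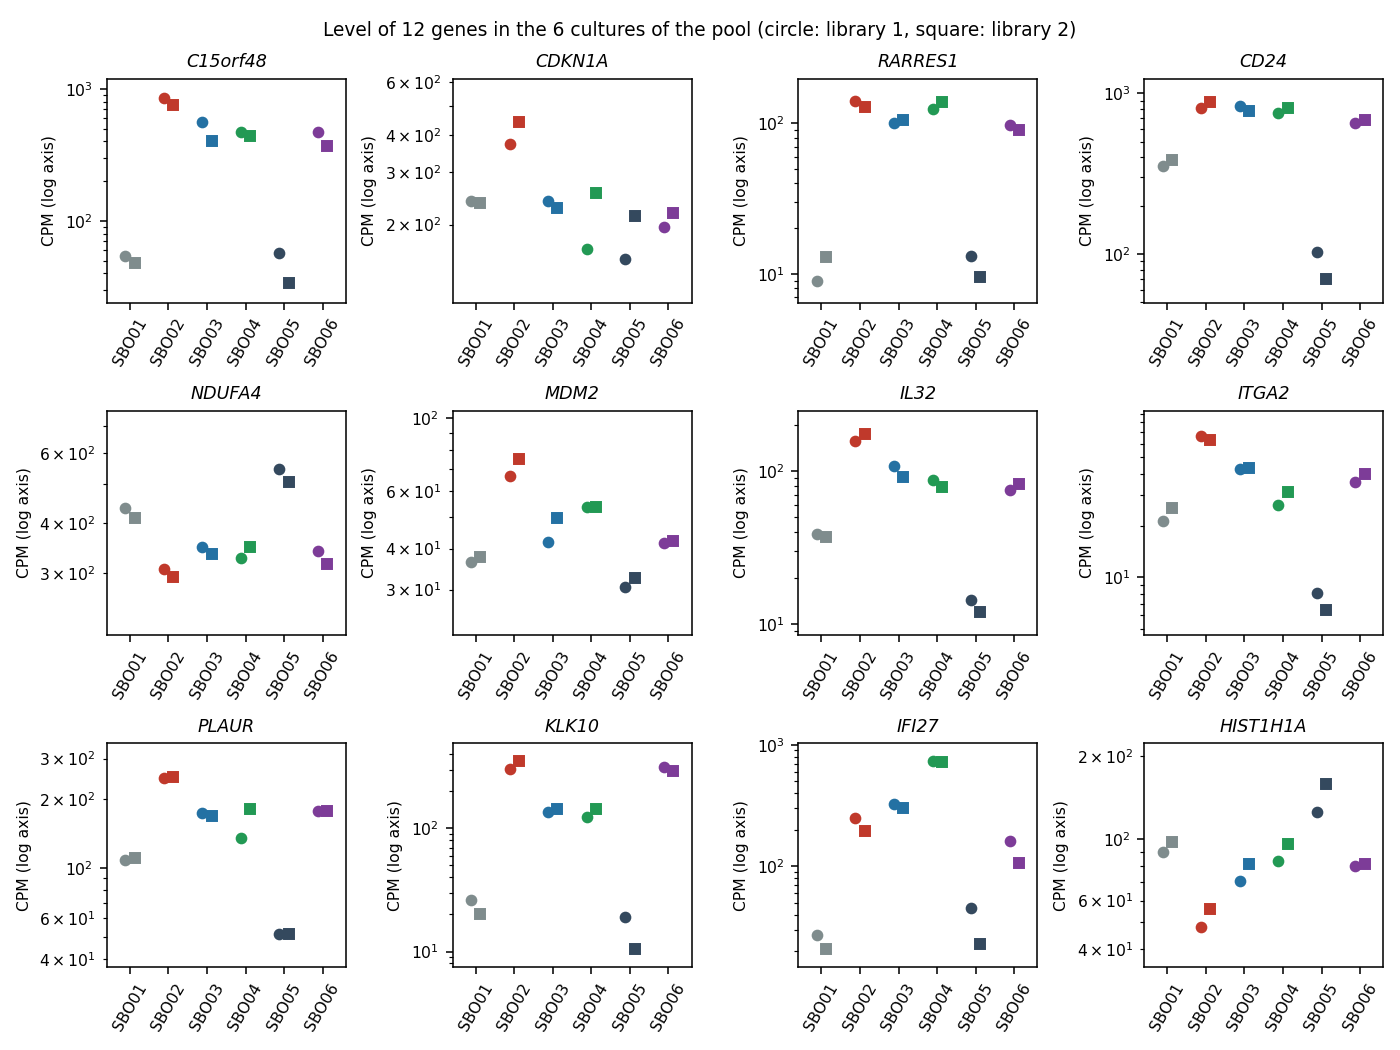
Level of 12 genes in CPM, on log axes, in the 6 cultures of the pool. Circles are library 1 and squares library 2, with 1 point for each culture and load, and no error bar because the loads are technical. C15orf48 and CDKN1A are highest in SBO02 in both libraries, while RARRES1 and CD24 of SBO02 overlap SBO04 or SBO03.

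The margin of 1.5-fold depended on which cells were counted and on how they were scaled or weighted, and the rank of SBO02 did not. On the same cells, C15orf48 did not pass with edgeR TMM library sizes or with the mean CPM of single cells, and CDKN1A did. The smaller log2 difference of the 2 loads was then 0.56 and 0.35 for C15orf48 and 0.59 and 0.69 for CDKN1A. The 13 alternatives scaled, thinned, weighted, assigned or filtered the cells, or left out 1 library. C15orf48 and CDKN1A were the highest in SBO02 in every library used in 13 of 13, and passed 1.5-fold in 7 and 9 of them. The alternatives that left out 1 library could fail neither count, since both genes passed in each library alone. A larger pseudocount could not change the rank. Without the cells under 0.5% mitochondrial UMIs, the smaller log2 difference of the 2 loads was 0.39 for C15orf48 and 0.42 for CDKN1A, and no gene passed 1.5-fold. Without cells whose cell barcode occurred in both libraries these were 0.51 and 0.57, and again no gene passed. With cells assigned by a highest barcode of at least 10 UMIs and at least 3 times the next, in place of HTODemux, C15orf48 passed, with 0.64 and 0.68 in the 2 loads, and CDKN1A did not, with 0.52 and 0.76.

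RARRES1 and CD24 did not set SBO02 apart. RARRES1 stood at 141 and 129 CPM in SBO02, at 101 and 105 CPM in SBO03, at 125 and 138 CPM in SBO04 and at 98.05 and 90.7 CPM in SBO06, so SBO04 was higher in library 2. CD24 stood at 811 and 881 CPM in SBO02, at 832 and 776 CPM in SBO03, at 754 and 815 CPM in SBO04 and at 650.3 and 682 CPM in SBO06, so SBO03 was higher in library 1. Their mean log2 difference from the next culture was 0.04 for each. Both were higher in SBO02 than in SBO06 in both libraries, by 0.51 for RARRES1 and 0.34 for CD24.

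The same genes were followed in single cells thinned to 10000 UMIs, which 215 and 161 cells of SBO02 reached and 45 and 29 did not. C15orf48 had at least 1 UMI in 74.9% (exact binomial 95% interval 68.5 to 80.5%) and 72.7% (65.1 to 79.4%) of SBO02 cells, against 78.1% and 81.1% unthinned. The share was 73.6% and 59.9% in SBO03, 70.7% and 65.5% in SBO04, and 66.9% and 63.2% in SBO06, and 3 of these 6 values lay within the interval of SBO02 in the same library. That interval covers the sampling of cells within 1 culture and not the spread between cultures, so it cannot decide whether cultures differ. The share in SBO05, where the gene was low, was 14.9% and 12.6% thinned and 24.0% and 21.7% unthinned, at medians of 18822 and 23628 UMIs per cell, and is given as the background. The cultures differed more in the number of UMIs than in the share of positive cells. The median SBO02 cell had 3 UMIs of C15orf48 in each library, against 1 or 2 in the other 3, and the upper quartile was 11 in each library against 4 to 6.25.

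CDKN1A differed in its tail, not in its median. Its median was 1 UMI in all 4 cultures, and 62.8% and 67.1% of thinned SBO02 cells had a UMI, against 52.3 to 68.6% in the other 3. Unthinned, it was 78.8% and 80.5% in SBO02, and in SBO05 45.7% and 41.5% thinned and 61.0% and 60.5% unthinned, so the share of cells did not separate SBO02. The 90th percentile was 8 and 9 UMIs in SBO02 and 3 to 6.5 in the others. The 10% of SBO02 cells with the most CDKN1A held 63.8% and 69.0% of its UMIs, against 47.2 to 67.9% in the other 3 and against 48.2% and 46.1% for C15orf48. NDUFA4 was even by contrast, with a median of 3 UMIs in each of the 4 cultures and both libraries.

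**Figure D2:**
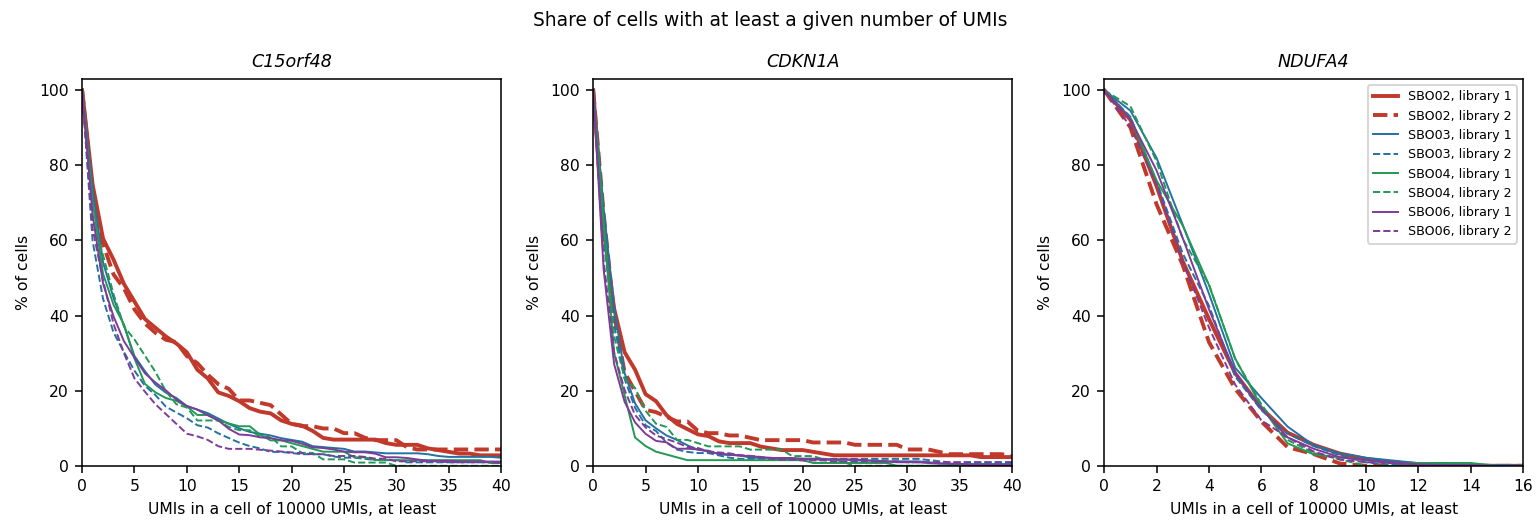
Share of cells, in %, with at least the number of UMIs on the x axis, for cells thinned to 10000 UMIs, for C15orf48, CDKN1A and NDUFA4. Thick red lines are SBO02, solid for library 1 and dashed for library 2. The SBO02 lines of C15orf48 run above the others from a few UMIs upward, those of CDKN1A part from the others in the tail, and those of NDUFA4 do not lie above them.

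SBO02 cells nearly without mitochondrial transcripts were high in both genes. Cells under 0.5% mitochondrial UMIs made up 66 of the 450 SBO02 cells (14.7%), against 10.5% in SBO03, 13.3% in SBO04, 9.13% in SBO06 and 1.23% in SBO05. In SBO02 these cells had 1373 CPM of C15orf48 against 719 CPM in its remaining cells, and 836 against 340.0 CPM of CDKN1A. HIST1H2AC, a core histone gene, stood at 191 against 41.6 CPM, and SNHG12, a snoRNA host gene, at 742 against 50.1 CPM. The other cultures showed the same direction at other sizes. C15orf48 stood at 720.1 against 458 CPM in SBO03, 471 against 450.5 CPM in SBO04 and 835 against 381 CPM in SBO06, and CDKN1A at 496 against 205, 285 against 204 and 329 against 196 CPM. SNHG12 stood at 331 CPM in these cells of SBO03, 148 CPM in SBO04 and 171 CPM in SBO06. The remaining cells of SBO02 were above those of SBO03, SBO04 and SBO06 for CDKN1A, at 205, 204 and 196 CPM, and for C15orf48, at 458, 450.5 and 381 CPM. For SNHG12 they were not, with 74.1, 94.3 and 58.6 CPM in the remaining cells of the other 3. The median depth of the low mitochondrial cells of SBO02 was 17397.5 UMIs against 24422.5 in the rest.

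**Figure D3:**
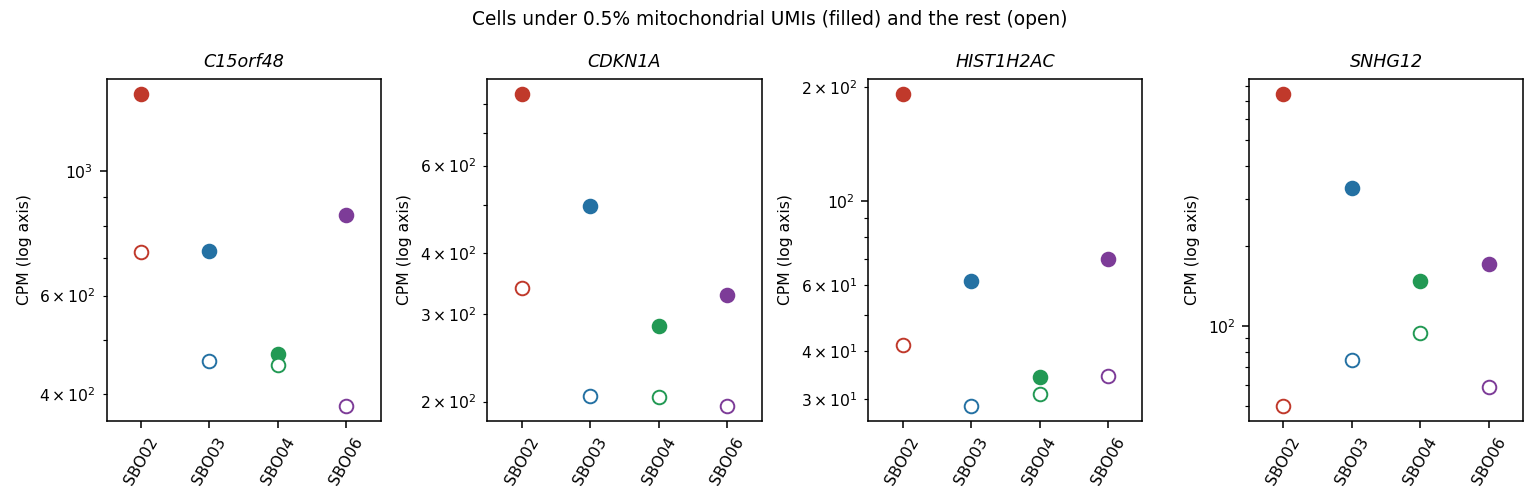
Level in CPM, on log axes and over both libraries, in cells under 0.5% mitochondrial UMIs (filled) and in the other cells (open) of each culture. C15orf48 and CDKN1A are higher in SBO02 among both kinds of cell, and SNHG12 of SBO02 is high in the filled points and lowest in the open ones.

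At a margin of 1.25-fold, chosen after the values were seen, SBO02 was the highest in both libraries for 15 genes (0.238%) and the lowest for 1 (0.0159%). IL32, a proinflammatory cytokine, stood at 157 and 176 CPM in SBO02 and at 74.9 to 109 CPM in the other 3, and ITGA2, the collagen receptor integrin α2, at 66.4 and 63.3 against 26.5 to 43.1 CPM. PLAUR, the urokinase receptor, stood at 246 and 249.7 CPM in SBO02 and at 135 to 180.3 CPM elsewhere. Their mean log2 differences from the next culture were 0.73, 0.59 and 0.47, with 0.69 for HIST1H2AC, and each of the 4 missed 1.5-fold in at least 1 library. The tight junction genes CLDN1 and OCLN, the autophagy gene MAP1LC3A, the trafficking adaptor RAB11FIP1, SNHG12, CYB5R1, CYTH2, TMEM132A and the antisense transcript IGFL2-AS1 made up the rest. IGFL2-AS1 reached the 20 CPM filter only through SBO02, and with the filter on the other 3 cultures alone 14 genes were the highest. HIST1H1A, a linker histone gene, was the lowest, at 48.2 and 55.8 CPM in SBO02 and 70.5 to 96.0 CPM in the other 3.

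**Figure D4:**
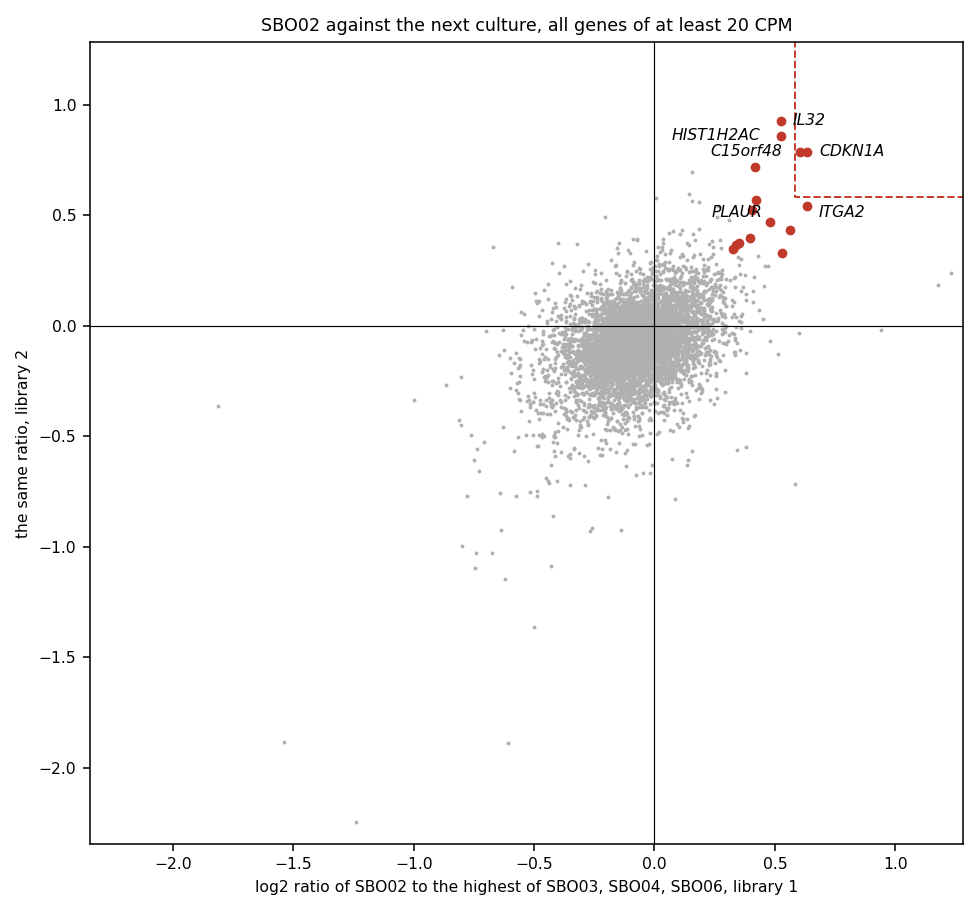
Log2 ratio of SBO02 to the highest of SBO03, SBO04 and SBO06 in library 1 (x axis) and library 2 (y axis) for 6301 genes. Red points are the 15 genes highest by 1.25-fold in both libraries and the dashed corner is 1.5-fold, which holds C15orf48 and CDKN1A.

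Against each culture in turn, the number of genes past 1.5-fold was lowest for SBO03. By 1.5-fold in both libraries, it was higher than SBO03 for 14 genes (0.222%) and lower for 3 (0.0476%), higher than SBO04 for 23 (0.365%) and lower for 7 (0.111%), and higher than SBO06 for 40 (0.635%) and lower for 3 (0.0476%). These were 61 genes higher against at least 1 culture, of which 47 against 1, 12 against 2 and 2 against all 3, and 13 genes lower, each against 1 culture only. This order was not stable, since at 2-fold 4, 3 and 4 genes passed against SBO03, SBO04 and SBO06, and without library 1 111 passed against SBO04 and 93 against SBO06. Between the loads of 1 culture, 17 genes (0.270%) passed 1.5-fold in SBO02, 7 (0.111%) in SBO03, 44 (0.698%) in SBO04 and 7 (0.111%) in SBO06. These counts rest on 1 comparison in either direction. They are not on the terms of the counts between cultures, which need both libraries.

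SBO02 stood above SBO03 and SBO04 in the kallikrein proteases, which process proteins of the outer epithelial layers. KLK10 stood at 303 and 350.5 CPM in SBO02, at 136 and 144 CPM in SBO03, at 124 and 144 CPM in SBO04, and at 317 and 292 CPM in SBO06. SBO06 overlapped SBO02, and both lay above SBO03 and SBO04. Of 5 kallikreins tested, SBO02 was higher by 1.5-fold than SBO03 for 2, than SBO04 for 2 and than SBO06 for 0. The shares of all genes were 0.222%, 0.365% and 0.635%. The median log2 differences were 0.64, 0.53 and 0.11. KLK5 and KLK7 were the highest in SBO02, beside 13.9% of all genes. SERPINB2, the inhibitor of plasminogen activators PAI-2, stood at 159 and 79.7 CPM in SBO02, where the loads were far apart, at 33.1 to 42.7 CPM in SBO03 and SBO04 and at 82.2 and 80.9 CPM in SBO06. KRT15, a keratin of basal cells, stood at 131 and 163 CPM in SBO02 against 67.4 to 116 CPM. The genes lower than in SBO03 were HMOX1, haem oxygenase, at 26.2 and 19.4 against 44.6 and 42.6 CPM, DHRS2 and TRBC2.

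Some interferon-stimulated genes were lower in SBO02 than in SBO04, and some were higher than in SBO06. IFI27, a mitochondrial protein induced by interferon, stood at 252 and 195 CPM in SBO02, 323 and 299.8 CPM in SBO03, 734 and 720.4 CPM in SBO04 and 160.4 and 107 CPM in SBO06. The 4 cultures did not overlap, and SBO02 lay above SBO06 alone. Of 34 genes of this list, all tested, SBO02 was higher than SBO06 by 1.5-fold for 8, beside 0.635% of all genes. It was lower than SBO04 for 4, beside 0.111%. The median log2 differences were -0.16, -0.19 and 0.56 from SBO03, SBO04 and SBO06. The list summed to 6587 and 6102 CPM in SBO02, 6829 and 7550 CPM in SBO03, 8021 and 8668 CPM in SBO04 and 5001 and 4286 CPM in SBO06. RSAD2, the antiviral enzyme viperin, gave 29.1 and 24.3 CPM in SBO02 against 44.8 and 92.5 CPM in SBO04 and 17.0 and 12.4 CPM in SBO06.

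SBO02 was also above SBO06 in genes of the matrix and of the TGF-β response. FN1, the gene of fibronectin, stood at 2985 and 3007 CPM in SBO02, 2872 and 3436 CPM in SBO03, 2296 and 2338 CPM in SBO04 and 1565 and 1701 CPM in SBO06, so SBO02 overlapped SBO03 and lay above the other 2. TAGLN, an actin-binding protein, stood at 108 and 119.8 CPM in SBO02 against 66.0 and 50.0 CPM in SBO06. Of 13 TGF-β targets, CDKN2B, TGFBI, PMEPA1 and SKIL were higher than in SBO06 by 1.5-fold, beside 0.635% of all genes. None passed against SBO03 or SBO04. CDKN2B, the cyclin-dependent kinase inhibitor p15, stood at 101 and 110.5 CPM in SBO02 against 50.5 and 53.6 CPM in SBO06 and 132 and 127 CPM in SBO03. Of 7 matrix genes 3 were higher than in SBO06, beside the same 0.635%, and the median log2 differences were -0.15, 0.37 and 0.54. The genes lower than in SBO06 were IL1B, at 20.4 and 22.7 against 36.3 and 46.3 CPM, FST, an activin antagonist, and KCNMA1.

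Several p53 targets were the highest in SBO02, most of them at small margins. Of 24 genes, 13 were tested, and 8 of these were the highest in both libraries and 0 the lowest, beside 13.9% and 10.7% of all genes. MDM2, the ubiquitin ligase that degrades p53, stood at 66.6 and 75.1 CPM in SBO02 and at 41.5 to 53.6 CPM in the other 3. GADD45A, a stress-induced cell cycle regulator, stood at 185 and 264 CPM against 128 to 175 CPM, and GDF15, a secreted stress cytokine, at 37.4 and 27.7 against 9.87 to 24.3 CPM. GDF15 and PLK3 reached the 20 CPM filter only through SBO02, and with the filter on the other 3 cultures alone 6 of 11 were the highest and 0 the lowest, beside 13.5% and 10.9% of all genes. BAX, DDB2, PHLDA3 and PLK3 were the others with CDKN1A. The median log2 differences of the list were 0.16, 0.22 and 0.25 from SBO03, SBO04 and SBO06, against 0.01, 0.00 and 0.02 for all genes. In single cells the list took a median of 0.09% of UMIs in SBO02 in both libraries and 0.08 or 0.09% in the other 3, while its 90th percentile was 0.23% and 0.27% in SBO02 and 0.14 to 0.21% in the others. Over both libraries together, the share of cells under 0.5% mitochondrial UMIs, in which CDKN1A was high, was also highest in SBO02. In library 1 SBO04 was higher, at 13.8% against 13.1%. In the remaining cells MDM2 stood at 68.3 CPM in SBO02 and at 40.8, 52.0 and 40.4 CPM in SBO03, SBO04 and SBO06. GDF15 stood at 28.6 CPM against 17.7, 17.8 and 16.7 CPM. The part of the low mitochondrial cells in the p53 list as a whole was not tested.

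Some S phase genes were the lowest in SBO02, by small margins. Of 20 S phase genes 2 were the highest and 7 the lowest, and of 22 G2/M genes 0 and 1, beside 13.9% and 10.7% of all genes, with median log2 differences between -0.06 and -0.02. RRM2, a subunit of ribonucleotide reductase, stood at 313 CPM in both libraries in SBO02 and at 339 to 375 CPM in the other 3. CDK1, the mitotic kinase, stood at 104 and 125 CPM in SBO02 and overlapped SBO06, at 133 and 117 CPM.

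Of 13 NF-kB targets tested 6 were the highest in SBO02 and 0 the lowest, beside 13.9% and 10.7% of all genes, among them IL32, RELB, a subunit of the factor, and TNFAIP3, the inhibitor A20, at 34.8 and 35.0 against 22.8 to 29.6 CPM. None was the highest by 1.5-fold, IL1B was lower than in SBO06 by that margin, and the median log2 differences were 0.39, 0.28 and 0.16. Of 12 class I genes tested 7 were the highest and 0 the lowest, beside the same 13.9% and 10.7%, with medians of 0.20, 0.11 and 0.37. HLA-F stood at 70.8 and 75.3 CPM in SBO02 and at 41.9 to 59.8 CPM in the others, while HLA-B, at 754 and 759.6 CPM, lay between SBO06, at 476 and 443 CPM, and SBO04, at 893 and 821 CPM.

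Of 23 tested adhesion genes of epithelia 11 were the highest in SBO02 and 0 the lowest, beside 13.9% and 10.7% of all genes, with median log2 differences of 0.12, 0.17 and 0.15. CLDN1 stood at 31.6 and 36.0 CPM in SBO02 and at 16.9 to 24.0 CPM in the others, OCLN at 46.2 and 52.8 against 35.1 to 41.3 CPM, and the desmosome gene PKP1 at 45.1 and 52.8 against 31.6 to 41.1 CPM. CDH1, the gene of E-cadherin, stood at 101 and 98.7 CPM in SBO02 and was passed by SBO03 in library 2, at 101 CPM. DSG3, a desmosomal cadherin, reached the filter only through SBO02, and 10 of 22 were the highest with the filter on the other 3 cultures. Of 19 tested genes of invasion proteases and integrins 5 were the highest and 0 the lowest, and of 12 S100 genes 5 and 0, to be read against the same 13.9% and 10.7%.

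SBO02 was the lowest for several metal-binding and glycolytic genes. Of 5 metallothioneins tested 4 were the lowest in both libraries and 0 the highest, beside 10.7% and 13.9% of all genes, with MT2A, which binds zinc and copper, at 4589.8 and 4270.5 CPM in SBO02 and 4497 to 5563 CPM in the other 3. MT1G stood at 21.1 and 24.5 against 24.3 to 37.8 CPM, so for both genes SBO02 was lowest within each library while the ranges over loads overlapped. Of 18 genes of glycolysis and hypoxia 8 were the lowest and 1 the highest, beside the same 10.7% and 13.9%. BNIP3, a mitophagy receptor induced by low oxygen, stood at 86.5 and 86.4 CPM in SBO02 and at 105 to 130.0 CPM in the others, and GAPDH at 8229 and 8186 against 8723 to 9057 CPM. None of these genes passed 1.5-fold against any culture.

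**Figure D5:**
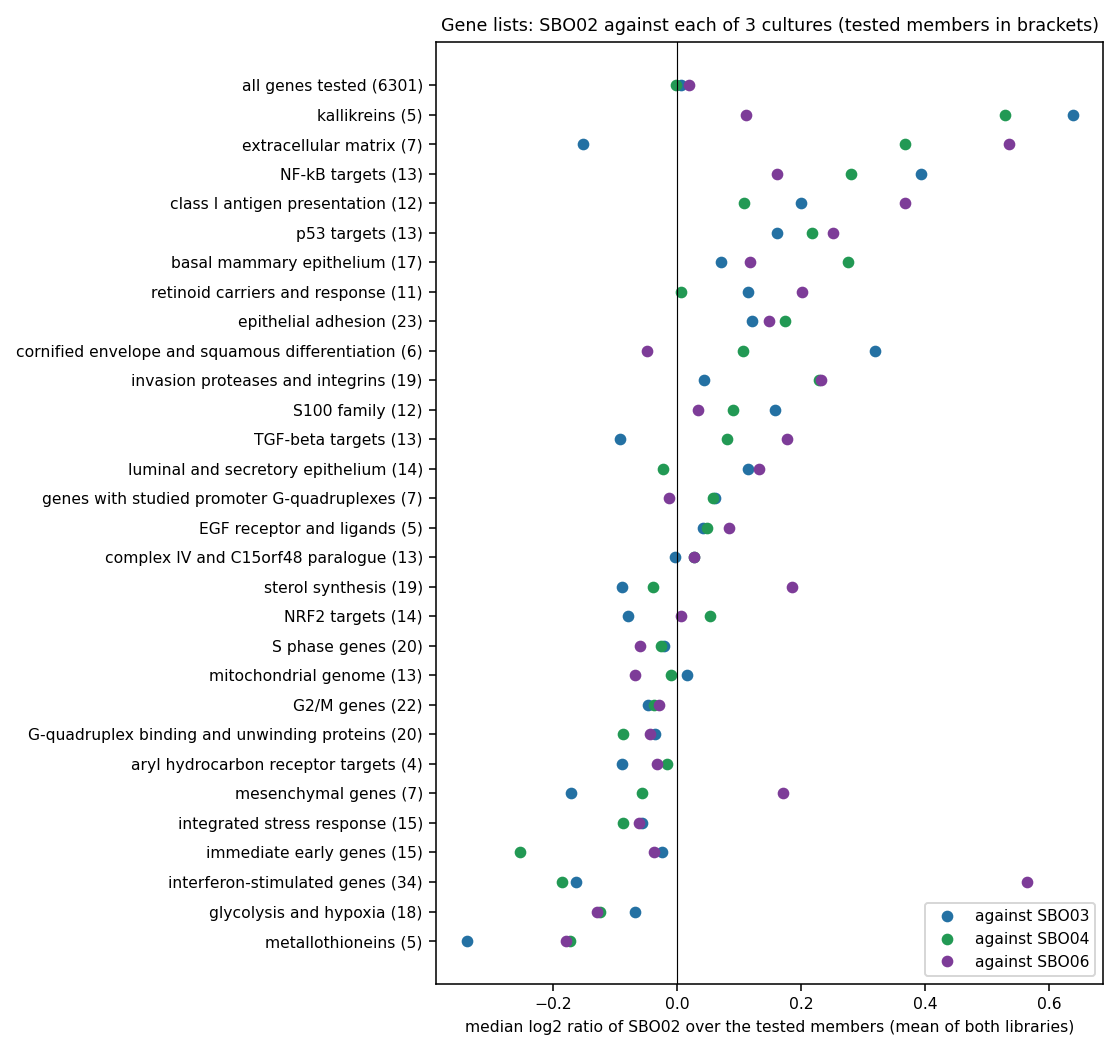
Median log2 ratio of SBO02 to SBO03, SBO04 and SBO06 over the tested members of each list, with their number in brackets; each ratio is the mean of both libraries and the line marks no difference. Kallikreins, NF-kB targets, class I and p53 targets lie to the right for all 3 cultures, metallothioneins and glycolysis to the left, and interferon-stimulated genes on both sides.

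NDUFA4, the paralogue of C15orf48, was the lowest in SBO02 by a small margin. NDUFA4 stood at 307 and 293 CPM in SBO02, 349 and 335 CPM in SBO03, 326 and 349 CPM in SBO04 and 339 and 316 CPM in SBO06, the lowest in SBO02 in each library by a mean log2 difference of 0.13 to 0.19. Of the 13 tested genes of the complex IV list C15orf48 and COX5A were the highest and NDUFA4 the lowest, shares near the 13.9% and 10.7% of all genes, and the median difference was -0.00 to 0.03. None of the 13 genes of the mitochondrial genome was the highest or the lowest in SBO02 in both libraries. Over the 12 sums of the 6 cultures and both libraries, CXCL16 (r = 0.991), CAST (0.989), CST6 (0.988), KLK7 (0.987) and RTKN2 (0.986) had the log2 level most like that of C15orf48, a description in which SBO01 and SBO05 are low for each and the loads of a culture are not independent. CXCL16, a membrane-bound chemokine, stood at 126 and 124 CPM in SBO02 and at 84.9 to 99.6 CPM in SBO03, SBO04 and SBO06.

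Because the study concerns G-quadruplexes, the genes of proteins that bind or unwind them and the promoters of the 2 leading genes were examined. Of 20 tested genes of such proteins 6 were the lowest in SBO02 and 1 the highest, beside 10.7% and 13.9% of all genes, with median log2 differences of -0.04, -0.09 and -0.04. NPM1, nucleophosmin, stood at 2653 and 2579.9 CPM in SBO02 and at 2826 to 3131 CPM in the others, and DHX9, an RNA and DNA helicase, at 92.4 and 95.9 against 96.5 to 110.0 CPM.

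C15orf48 lies at chr15:45430529-45448761 on the plus strand (GENCODE v29, GRCh38) and overlaps the antisense gene AC025580.1, the gene AC025580.2 and the microRNA gene MIR147B. CDKN1A lies at chr6:36676460-36687339 on the plus strand and overlaps the noncoding DINOL on the minus strand. How the authors' counting used strand is not given in the sources used here, so reads of antisense partners cannot be told apart. The 250 bases before the start of each gene in RefSeq (GRCh38.p14) are printed 5′ to 3′ on the gene strand, at chr15:45430360-45430609 for C15orf48, which RefSeq names COXFA4L3, and at chr6:36678464-36678713 for CDKN1A. These RefSeq starts differ from the GENCODE starts given above. The CDKN1A window lies inside the GENCODE gene, and the C15orf48 window crosses the GENCODE start. Capitals mark runs of 3 or more G or C, the building blocks of a G-quadruplex on either strand.
C15orf48: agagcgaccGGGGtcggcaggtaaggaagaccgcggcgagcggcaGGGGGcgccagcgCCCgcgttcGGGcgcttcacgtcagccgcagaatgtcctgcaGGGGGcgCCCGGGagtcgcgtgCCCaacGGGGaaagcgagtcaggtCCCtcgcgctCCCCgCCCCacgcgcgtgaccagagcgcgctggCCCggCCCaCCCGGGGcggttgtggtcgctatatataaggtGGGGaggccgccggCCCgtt
CDKN1A: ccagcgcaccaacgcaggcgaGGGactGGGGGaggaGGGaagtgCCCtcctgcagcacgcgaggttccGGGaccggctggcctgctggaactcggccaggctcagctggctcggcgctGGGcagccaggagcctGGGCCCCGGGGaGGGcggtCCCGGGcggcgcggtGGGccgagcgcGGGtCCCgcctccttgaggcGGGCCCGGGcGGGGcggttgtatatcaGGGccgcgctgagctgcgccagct
C15orf48 held 8 runs of G and 10 of C and no stretch of 4 runs of at least 3 G, on either strand, with 1 to 7 bases between them. CDKN1A held 15 runs of G and 5 of C and had such a stretch on the gene strand. Of 35116 RefSeq promoters cut to this length 8236 (23.5%) had one. A match describes the letters of this window and is not a measured structure.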

How the data were processed

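The series holds 4 mRNA libraries of HMLE cells with 4 barcode libraries, and libraries 1 and 2 were used. The deposited values are UMI counts, 1 raw matrix per mRNA library with 36601 genes and 12 barcodes, per the file headers. The authors used Seurat 4.1.0, Cell Ranger 6.0.2 and bcl2fastq 2.20.0.422 on hg38, per the submitters' processing notes. The annotation release is not given in the sources used here.

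Barcodes SBO01 to SBO06 were scaled by centred log ratios and called by HTODemux (Seurat 5.3.0, positive quantile 0.99) in each library alone. Of 7600 and 5118 kept cells, 2305 and 1205 had several barcodes and were left out as doublets, and 1621 and 1136 had none. Doublets within 1 culture stay in. UMIs were summed per culture and library and given as CPM, without test or p-value, since each culture is 1 sample. Ratios were taken on CPM with a pseudocount of 1. A call needs 1.5-fold past the most extreme of the other 3 cultures in both libraries, over genes of at least 20 CPM on average over the 4 cultures, a filter that SBO02 alone can carry a gene past. The steps were also run on simulated counts with known changes. These held counting error alone, without the spread between cells or loads, so they do not measure the error of the calls.

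The members, markers and gene lists were chosen with earlier results of these data known. Named genes are the 3 markers, genes past the margin, up to 4 members of each list farthest from the median of the other cultures, some fixed identity genes and the 5 most like C15orf48; genes at 1.25-fold and others named in a list or comparison were chosen after their values were seen. Alternatives used edgeR 4.0.16, DESeq2 1.42.0, other cell filters and other margins. Exact intervals cover counting error only. Some results are not reported here.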

Additional observations from a re-analysis of the deposited data

How the results depend on the processing

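The count of genes highest in SBO02 by 1.5-fold was 2 as reported. It was 1, CDKN1A, with edgeR TMM library sizes and with thinned cells, and 1, GDF15, with singlets of a higher foreign barcode kept, where neither C15orf48 nor CDKN1A passed. The mean CPM of single cells gave 4, CDKN1A, CYTH2, HIST1H2AC and IGFL2-AS1, without C15orf48. Cells assigned by a top barcode at least 3 times the next gave 4, C15orf48, ECM1, IL32 and ITGA2, without CDKN1A. At least 2000 genes and at most 10% mitochondrial UMIs also gave 4, C15orf48, CDKN1A, IL32 and ITGA2. The count was 5 at a mean of 5 CPM, with both leading genes among them, and 0 at 2-fold. Chosen after seeing the data, a margin of 1.25-fold gave 15 highest and 1 lowest, and the counts were 0 without cells under 0.5% mitochondrial UMIs and without shared cell barcodes, where RARRES1 and CD24 were at -0.01 and 0.01 in log2 from the next culture. With the filter on the other 3 cultures, also added then, the counts were 2 and 0. Leaving out 1 library gave 6 to 7 highest, and 1 lowest for either library. Genes past the margin between SBO02 and SBO03, SBO04 and SBO06, 17, 30 and 43 as reported, were 46, 73 and 77 at 5 CPM and 4, 3 and 4 at 2-fold. Thinned cells gave 26 for SBO03 and 49 for SBO04, and the cell mean 49 for SBO04. With 1 library they ranged from 44 to 59, from 79 to 111 and from 74 to 93. C15orf48 lay between 0.58 and 0.79 above the next culture in log2, and CDKN1A between 0.55 and 0.79, of which 0.55 was without cells under 0.5% mitochondrial UMIs. The cause of these differences was not tested beyond what each setting does. No paired analysis was possible because the results come from no test. Cells of SBO02 number 450, depth per cell limits shares to UMIs detected, and spread between replicate cultures was not measured.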
